A study of Homo sapiens with 18 samples.

Results

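CCL2 is a secreted CC chemokine, also called monocyte chemoattractant protein, and was followed here in 6 lines of HEK cells, an established human embryonic kidney line. It was selected by gene symbol and is represented by 1 probe set, out of 53617 probe sets and 14884 genes with a symbol. The ATXN1L-KO lines A10, A30 and B21, the CRISPR control lines N4 and N8, and the parental HEK cells were each measured as 3 biological replicates, 1 array per replicate, which gave 9 arrays labelled KO and 9 labelled wild type (WT). Per the labels, cells were treated with CRISPR reagents, selected in puromycin and isolated as colonies; the parental samples carry that same treatment text although they are described as parental. Each edited line is 1 clone, and which site was edited is not stated in the labels. The comparisons ask how CCL2 differs where ATXN1L, a partner of the transcriptional repressor CIC, was edited, and how it differs between clones of the same genotype.

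CCL2 attracts monocytes and some lymphocytes through the receptor CCR2. Many non-immune cells, kidney epithelium and fibroblasts among them, make little CCL2 at rest and transcribe it on exposure to cytokines such as TNF and IL-1, with the transcription factor families NF-kB and AP-1 among its known regulators. The gene lies on chromosome 17 in a cluster of related CC chemokine genes that includes CCL7, CCL11, CCL8 and CCL1.

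CCL2 was high in A30 and N8, intermediate in B21 and low in A10, the parental cells and N4, so that high and low lines occurred in both genotypes. All values are log2 probe set signals as deposited. In A30 the signal was 6.41, 6.69 and 7.13 on the 3 arrays, a mean of 6.74 ± 0.36 (SD, n = 3). In B21 it was 5.34, 5.61 and 6.27, a mean of 5.74 ± 0.48 (SD, n = 3). In A10 it was 4.28, 4.77 and 5.42, a mean of 4.82 ± 0.57 (SD, n = 3). Every A30 array lay above every B21 and A10 array, while the ranges of B21 and A10 overlapped.

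Among the WT lines, N8 had 6.33, 6.69 and 6.63, a mean of 6.55 ± 0.19 (SD, n = 3). N4 had 4.26, 4.84 and 3.62, a mean of 4.24 ± 0.61, and the parental cells had 5.09, 4.57 and 4.53, a mean of 4.73 ± 0.31 (SD, n = 3 each). The 3 N8 arrays stood above all 6 arrays of the other WT lines, and N4 and the parental cells overlapped. CCL2 was chosen for these WT values, namely the range of 2.31 between the WT line means and the N8 minus parental difference of 1.82 (3.53-fold). Both are therefore given as a description, without a test. N4 differed from the parental cells by −0.49.

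**Figure D1:**
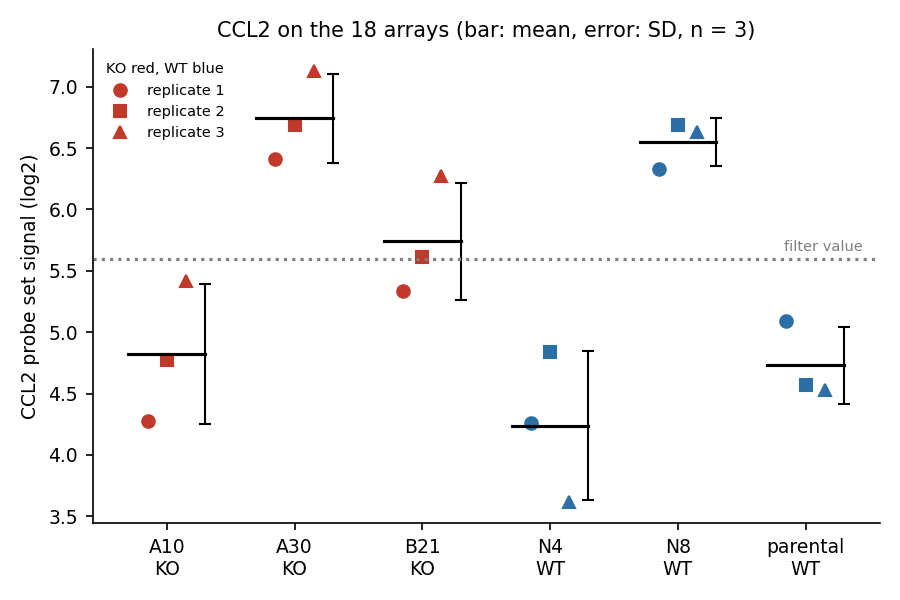
CCL2 probe set signal (log2) on each of the 18 arrays, by line, with KO-labelled lines in red and WT lines in blue; horizontal bars are means, error bars SD (n = 3), and the dotted line is the filter value of 5.6. A30 and N8 lie wholly above the filter value, B21 spans it, and A10, N4 and the parental cells lie below it.

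Ordered by line mean, the levels ran from A30 (6.74) through N8 (6.55), B21 (5.74), A10 (4.82) and the parental cells (4.73) to N4 (4.24), a span of 2.50 or 5.67-fold in signal. Of neighbours in this order, only N8 and B21 had array ranges that did not overlap, with a gap of 0.81 between their means. A30 exceeded N8 by 0.19, which was less than the SD of the A30 arrays. A10 and the parental cells were 0.093 apart.

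Signal strength limits these values. The filter on dim probe sets was set at 5.6, the 40th percentile of the signals of genes with a symbol, and 8 of 18 arrays exceeded it for CCL2, namely 3 of A30, 2 of B21 and 3 of N8. No array of A10, N4 or the parental cells did. Background was not measured separately in the deposited values, so the lower lines can be called dim but not negative, and fold values that have a dim line as the denominator may be too small. The within-line SD of CCL2 was 0.45, against a median of 0.12 over all 9686 genes tested and 0.18 over the 947 tested genes whose mean lay within 0.25 of that of CCL2. In RNA from whole cultures, fewer cells that express CCL2 and less CCL2 RNA per cell cannot be told apart.

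The arrays as a whole were close to each other, with medians of 5.09 to 5.18 and r = 0.978 to 0.994 across genes within lines and 0.957 to 0.9905 between lines. After each gene was centred on its mean, replicate 1 of A10 had a highest correlation of 0.135 with another A10 array, the least of the 18 arrays with its own line, and of 0.395 with an array of a different line. The A10 calls, the pairs with A10 and the ranking by likeness are therefore also given without it. ATXN1L signal was 7.37 to 7.48 over the KO-labelled lines and 7.11 to 7.21 over the WT lines (difference 0.25 ± 0.08 SE, limma adjusted p = 0.468), and since the edited site is not known, this signal cannot check the genotype. Of 12 embryonic kidney markers 10 had a probe set and 9 passed the filter, among them the keratin gene KRT18, while PAX2, a kidney developmental factor, was near the filter value with 5.25 to 5.85 over all arrays.

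With the clone as the unit of replication, CCL2 did not separate the genotypes. The KO-labelled lines averaged 5.77 ± 0.96 and the WT lines 5.17 ± 1.22 (SD, n = 3 lines each). The difference of 0.60 ± 0.60 (SE) had a 95% interval of −0.77 to 1.96, so a KO level from 0.585 to 3.9 times the WT level was within the interval for these 6 lines. The limma adjusted p over all genes tested was 0.785. An exact two-sided permutation test of the 6 line means gave p = 0.5, where the smallest value it can give is 0.1. In this comparison 0 of 9686 genes passed with limma (0%), and 937 (9.67%) had an unadjusted p under 0.05; for CCL2 the unadjusted p was 0.350.

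The difference between genotypes moved with which lines were included. It was 1.28 without N8, 1.07 without A10, 0.11 without A30, 0.13 without N4 and 0.37 without the parental cells. It was 0.12 in replicate 1 alone and 0.84 in replicates 2 and 3. None of these passed, with limma adjusted p from 0.419 to 0.991.

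Each KO-labelled line was then set against the WT lines on single arrays, a test that covers the spread between cultures and not between clones. These comparisons share their WT arrays, and N8, for which CCL2 was chosen, is among them. In A30, CCL2 rose by 1.57 ± 0.25 (SE; limma adjusted p = 0.000206), 2.97-fold with a 95% interval of 2.05 to 4.31. In B21 it differed by 0.57 ± 0.25, a fold of 1.48 with an interval of 1.02 to 2.15, and did not pass over all genes (limma adjusted p = 0.146). In A10 it differed by −0.35 ± 0.25, with an interval of −0.89 to 0.19 (limma adjusted p = 0.455). Over all tested genes 29.3% were called in A30 (12.9% higher, 16.3% lower), 16% in B21 (8.82% higher, 7.2% lower) and 8.4% in A10 (3.84% higher, 4.56% lower).

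Which WT line served as reference decided the B21 call and the sign in A10. Against the parental cells and N4 alone, CCL2 rose in B21 by 1.26 ± 0.27 (limma adjusted p = 0.00405) and in A30 by 2.26 ± 0.27, whereas A10 differed by 0.34 ± 0.27 (limma adjusted p = 0.508). Against the parental cells alone, the differences were 2.01 ± 0.31 in A30 and 1.01 ± 0.31 in B21 (limma adjusted p = 0.000207 and 0.0424), and 0.093 ± 0.31 in A10, with an interval of −0.56 to 0.75. The rise in A30 was called with all 3 references. Leaving N8 out follows from its CCL2 values, so these differences are larger by construction. The p-values given with them rest on the WT values for which CCL2 was chosen. They are therefore no further support for a rise in A30 or B21.

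**Figure D2:**
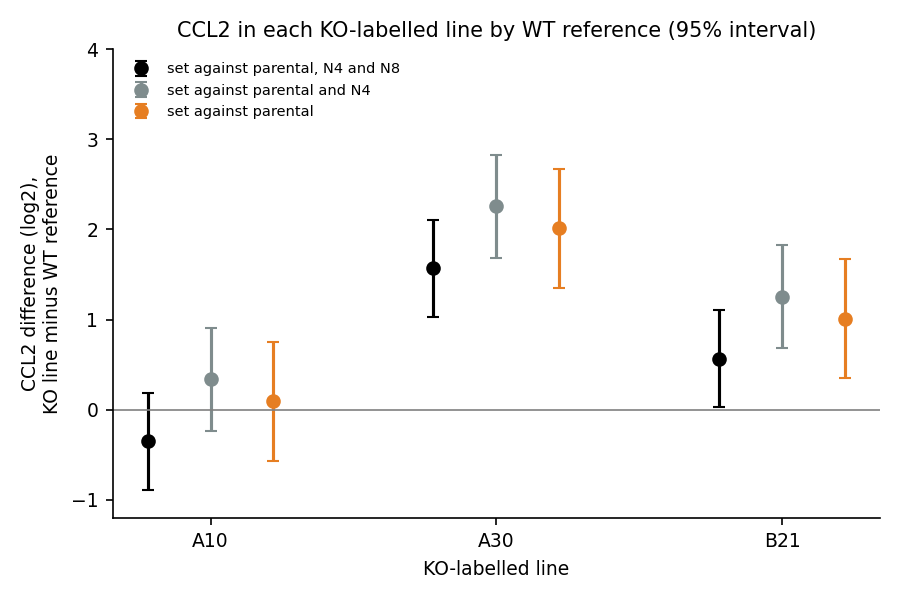
Difference in CCL2 signal (log2) between each KO-labelled line and the WT reference named in the legend; points are limma estimates and bars 95% intervals. A30 lies above 0 with each reference, from 1.57 to 2.26, B21 ranges from 0.57 to 1.26, and A10 from −0.35 to 0.34 with every interval spanning 0.

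The KO-labelled lines differed from each other in CCL2, a spread for which the gene was not chosen. The range of their line means was 1.92, or 3.78-fold, and limma's F test passed over all genes (adjusted p = 0.000886), as it did for 25.8% of all tested genes. By size, CCL2 had rank 7 of 9686 genes by the range of KO line means, and 89 genes (0.919%) exceeded a range of 1.

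Pair by pair, A30 exceeded A10 by 1.92 ± 0.31 (SE; limma adjusted p = 0.000319; 21.9% of genes called). A30 minus B21 was 1.00 ± 0.31 (interval 0.35 to 1.66) and missed the threshold (limma adjusted p = 0.0508; 9.8% of genes called). B21 minus A10 was 0.92 ± 0.31 (interval 0.26 to 1.57) and missed it as well (limma adjusted p = 0.0626; 13.1% of genes called). Both intervals exclude 0 before the adjustment over all genes. Without replicate 1 of A10, A30 minus A10 was 1.65 ± 0.33 (limma adjusted p = 0.00196) and B21 minus A10 was 0.65 ± 0.33 (limma adjusted p = 0.225). In that fit the range among the KO-labelled lines was 1.65 (limma adjusted p = 0.00376), and A10 minus WT was −0.08 (limma adjusted p = 0.905).

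Replicate 1 of A10, A30 and B21 had the lowest CCL2 signal of its line, below the mean of replicates 2 and 3 by 0.82, 0.50 and 0.60 (log2). In the WT lines the same difference was 0.03 in N4, −0.33 in N8 and 0.54 in the parental cells. Over all 6 lines, with the line as a term, replicate 1 differed by −0.28 ± 0.18 (limma adjusted p = 0.306), in a comparison where 18.6% of genes were called (8.56% higher, 10% lower). It was −0.64 ± 0.18 within the KO-labelled lines (limma adjusted p = 0.132) and 0.08 ± 0.23 within the WT lines (limma adjusted p = 0.849). The test of the difference between these (−0.72 ± 0.33) did not pass either (limma adjusted p = 0.618).

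The chemokine genes next to CCL2 on chromosome 17 stayed dim in every line. The 4 of them with a probe set, CCL7, CCL11, CCL8 and CCL1, ranged from 2.29 to 5.16 over all arrays, and none exceeded the filter value on any array. CCL7, the nearest, was at 3.10 in A30, 2.95 in B21 and 2.91 in A10, against 2.52 in N8, 3.14 in N4 and 2.90 in the parental cells. In N8, where CCL2 was high, the level of CCL7 was the lowest of the 6 lines. CCL8 was at 3.40 in A30 and between 2.74 and 3.16 in the other lines. The widest range of line means among the 4 was 0.66, in CCL8.

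Beyond the cluster, TMEM98 and MYO1D on one side and ZNF830 on the other exceeded the filter value on all 18 arrays. TMEM98, a membrane protein gene, had a line range of 0.53 (8.28 in A30 and 8.46 in N8, 7.93 in the parental cells). The ranges were 0.30 for MYO1D, a myosin gene, and 0.28 for ZNF830. The 5 measured genes before CCL2 had line ranges of at most 0.55. The dim probe sets of the chemokine cluster can hide changes below background, and no detection flags were used.

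**Figure D3:**
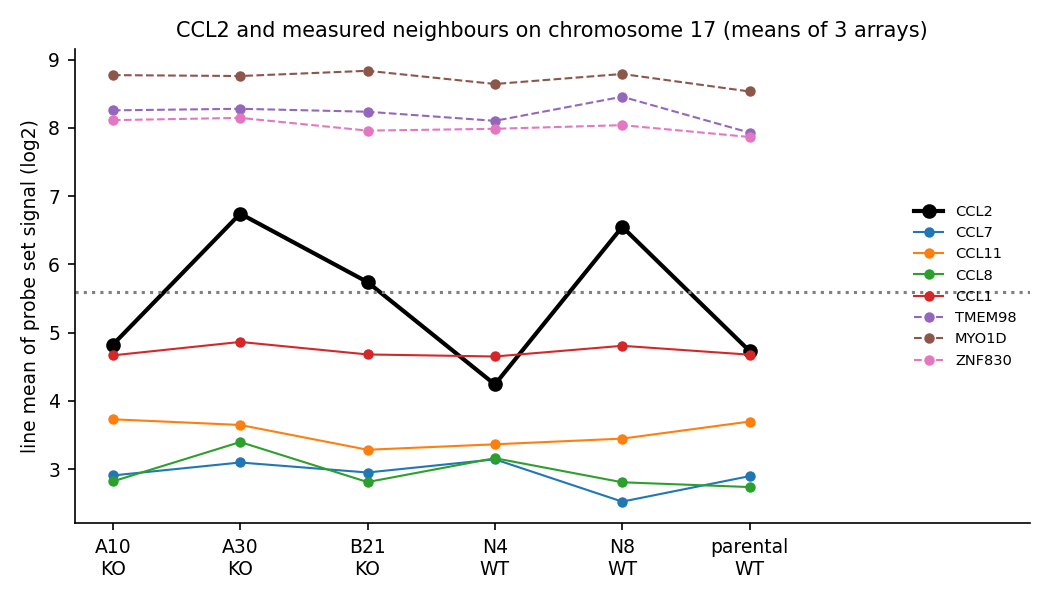
Line means (3 arrays each) of probe set signal (log2) for CCL2 and for measured neighbours on chromosome 17, with chemokine genes as solid and other genes as dashed lines; the dotted line is the filter value of 5.6, and heights are not compared between genes. CCL2 spans 2.50 between lines, while CCL7, CCL11, CCL8 and CCL1 span 0.66 or less.

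Of 33 other chemokine ligand genes listed, 31 had a probe set, 8 passed the filter and 22 exceeded the filter value on no array. None of the 31 had line means spanning more than 1, and the widest, CXCL12, spanned 0.74. CXCL12, a ligand of CXCR4, had 6.79, 6.63 and 6.51 in A30, against 6.25, 6.01 and 6.12 in N4, 6.02, 5.75 and 5.95 in N8 and 6.20, 6.53 and 6.24 in the parental cells. It rose in A30 by 0.52 ± 0.09 (SE, limma adjusted p = 0.000296) relative to the WT lines, and fell in N8 by 0.42 ± 0.11 relative to the parental cells (limma adjusted p = 0.0167; 14.7% of genes called, 7.67% higher and 7.03% lower). In the lines where CCL2 was highest, CXCL12 thus had its highest (A30, 6.64) and its lowest (N8, 5.91) line mean.

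CXCL16, a membrane-bound chemokine, went the other way. It fell in A30 by 0.41 ± 0.08 relative to the WT lines (limma adjusted p = 0.000617) and rose in N8 by 0.32 ± 0.09 relative to the parental cells (limma adjusted p = 0.0284). CCL22, CXCL2, CCL27, CCL21, CX3CL1 and CCL17 were called in none of the KO-line or N8 comparisons, with line ranges of 0.13 to 0.27. In A10, B21 and N4 none of the 8 tested ligands was called, where 8.4%, 16% and 0.547% of all genes were.

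The receptors of CCL2 were dim. CCR2, the main receptor, was at 3.38 to 4.12 over all arrays, and the decoy receptor ACKR2 at 4.18 to 4.81. Of 23 chemokine receptors listed, 20 had a probe set and CXCR4 alone passed the filter. CXCR4 fell in N8 by 0.54 ± 0.14 relative to the parental cells (limma adjusted p = 0.0192). It was at 7.34, 7.19 and 7.21 in N8, against 7.91, 7.66 and 7.79 in the parental cells, and the groups did not overlap. In A30 it differed from the WT lines by 0.25 ± 0.12 (limma adjusted p = 0.122).

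Genes of the NF-kB pathway went in both directions. Of 21 listed, 11 had a probe set and 10 were tested. In A30, 4 rose and 1 fell, where 29.3% of all genes were called (12.9% higher, 16.3% lower). The median in A30 was 0.16 over the 10 genes against 0.01 over all tested genes. MYD88, the adaptor of Toll-like and IL-1 receptors, rose in A30 by 0.59 ± 0.15 (limma adjusted p = 0.00718) and BCL3, a nuclear IkB-family protein, by 0.26 ± 0.09 (limma adjusted p = 0.0272). NFKB1, a subunit precursor gene, fell in A30 by 0.48 ± 0.07 (limma adjusted p = 0.000137). In N8, 1 of 10 was called, where 14.7% of all genes were. This was NFKB2, the subunit gene of the non-canonical branch, which rose by 0.42 ± 0.11 relative to the parental cells (limma adjusted p = 0.0206).

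MYD88 was at 6.11, 6.36 and 6.13 in A30, 5.70, 6.15 and 6.09 in B21 and 5.50, 4.81 and 5.09 in A10. In the WT lines it was at 5.01, 5.0 and 5.43 in N8, 5.64, 6.13 and 6.26 in N4 and 5.58, 5.58 and 5.89 in the parental cells. N4, the line with the least CCL2, thus overlapped A30 in MYD88, and N8 was as low as A10. A part of MYD88 in the CCL2 level was not tested. Without replicate 1 of A10, MYD88 fell in A10 by 0.66 ± 0.16 (limma adjusted p = 0.0126), whereas it did not pass with all arrays (−0.48 ± 0.15, limma adjusted p = 0.0593). NFKB2 was the gene called in A10, where it fell by 0.32 ± 0.09 relative to the WT lines (limma adjusted p = 0.0425), and by 0.38 ± 0.11 without replicate 1 (limma adjusted p = 0.0281). None of the 10 was called in B21 or in N4. Over all tested genes 8.4% were called in A10, 16% in B21 and 0.547% in N4.

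Few other inflammatory genes could be tested. Of 19 listed, 11 had a probe set and 4 were tested, too few to tell their share of calls from that of all genes. CSF1, a macrophage growth factor gene, rose in B21 by 0.23 ± 0.06 (limma adjusted p = 0.0229), and no other call was made in a KO-labelled line. Over all tested genes 16% were called in B21, 29.3% in A30 and 8.4% in A10. IL32, a cytokine gene, had line means of 5.83 in A30, 5.88 in B21 and 5.41 in A10, against 6.15 in N8, 5.32 in N4 and 5.56 in the parental cells. Its N8 minus parental difference of 0.59 ± 0.23 did not pass (limma adjusted p = 0.0896). LIF and ICAM1 had line ranges of 0.27 and 0.19.

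Of 19 receptors of signals known to act on CCL2, 9 had a probe set and 7 were tested. In B21, 5 rose and none fell (16% of all genes called), with a median of 0.52 against 0.01 over all genes. In A30, 2 rose and none fell, a share like the 29.3% called over all genes. In A10, 1 rose and 1 fell (8.4% of all genes called). In N8, 2 rose and 1 fell relative to the parental cells (14.7%).

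IL6R, the interleukin 6 receptor gene, was at 6.70, 6.67 and 6.70 in A30, 7.0, 7.30 and 7.16 in B21 and 6.07, 6.24 and 6.12 in A10. In the WT lines it was at 6.72, 6.55 and 6.83 in N8, 6.26, 6.31 and 6.29 in N4 and 6.19, 6.42 and 6.36 in the parental cells. Relative to the WT lines it rose by 0.25 ± 0.07 in A30 and 0.72 ± 0.07 in B21 and fell by 0.29 ± 0.07 in A10 (limma adjusted p = 0.0130, 4.08e-06 and 0.0171). In N8 it rose by 0.38 ± 0.09 relative to the parental cells (limma adjusted p = 0.00890). Without replicate 1 of A10 the fall in A10 no longer passed (−0.26 ± 0.08, limma adjusted p = 0.0578). The lines with higher IL6R were the 3 with higher CCL2, in a different order, with more IL6R and less CCL2 in B21 than in A30. A part of IL6R in the CCL2 level was not tested.

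LIFR, the receptor gene for leukemia inhibitory factor, rose in A30 and B21 by 0.68 ± 0.06 and 0.70 ± 0.06 and fell in N8 by 0.33 ± 0.08 relative to the parental cells (limma adjusted p = 1.18e-06, 1.94e-06 and 0.0105). OSMR, the oncostatin M receptor gene, rose in A10 by 0.43 ± 0.12 and in B21 by 0.57 ± 0.12 (limma adjusted p = 0.0347 and 0.00361); without replicate 1 of A10 the rise in A10 was 0.50 ± 0.14 (limma adjusted p = 0.0272). EGFR rose in B21 by 0.52 ± 0.09 (limma adjusted p = 0.00113) and differed by 0.25 ± 0.09 in A30 (limma adjusted p = 0.0502).

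All 8 AP-1 subunit genes listed were tested. In A30, 3 rose and 1 fell (29.3% of all genes called either way), in B21, 4 rose and 1 fell (16%), in A10 1 fell (8.4%), and in N8 1 rose and 1 fell relative to the parental cells (14.7%). FOSL2, which encodes the subunit FRA2, was at 6.71, 6.82 and 6.94 in A30, 6.60, 7.01 and 7.06 in B21 and 6.31, 6.25 and 6.45 in A10. It was at 6.77, 6.58 and 6.78 in N8, 6.20, 6.23 and 6.40 in N4 and 6.09, 6.19 and 6.32 in the parental cells. All arrays of A30, B21 and N8 thus lay above all arrays of the 3 other lines. How many of all tested genes divide the lines in this way was not counted. FOSL2 rose by 0.43 ± 0.09 in A30 and 0.49 ± 0.09 in B21 relative to the WT lines, and by 0.51 ± 0.11 in N8 relative to the parental cells (limma adjusted p = 0.00189, 0.00144 and 0.00595).

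JUND fell in A30, B21 and N8, by 0.45 ± 0.08 in A30, 0.44 ± 0.08 in B21 and 0.41 ± 0.10 in N8 (limma adjusted p = 0.000547, 0.00165 and 0.0121). In A10, JUND was at 8.81, 8.43 and 8.41, which overlapped the N8 arrays at 8.67, 8.33 and 8.41, so it did not divide the lines as FOSL2 did. Its A10 minus WT difference was −0.22 ± 0.08 (limma adjusted p = 0.109), and without replicate 1 of A10 it passed at −0.35 ± 0.08 (limma adjusted p = 0.00678). ATF3, a stress-induced factor gene, rose by 0.51 ± 0.09 in A30 and 0.47 ± 0.09 in B21 (limma adjusted p = 0.000489 and 0.00213), and its N8 minus parental difference of 0.27 ± 0.11 did not pass (limma adjusted p = 0.120). FOS differed by −0.16 ± 0.21 in A30 and −0.11 ± 0.26 in N8 and was not called. FOSL2 and IL6R were picked for these array values from the members with the widest line ranges.

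**Figure D4:**
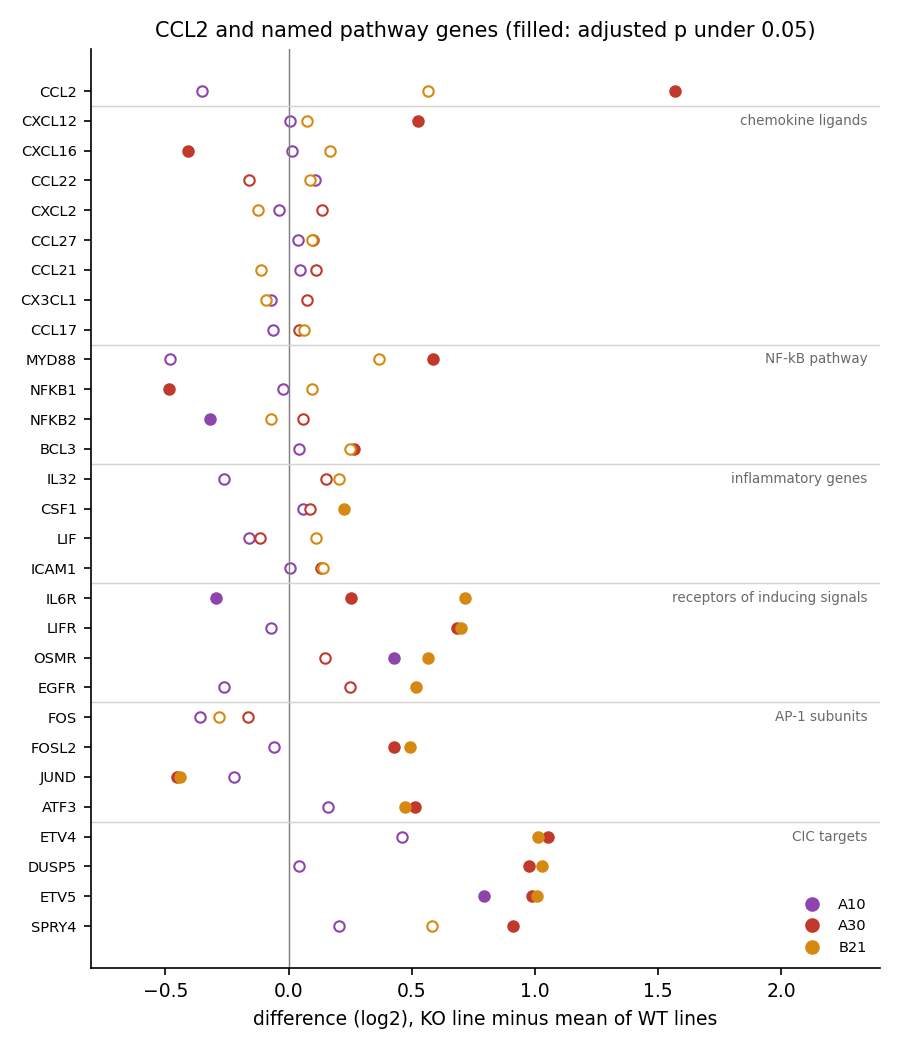
Difference in signal (log2) between each KO-labelled line and the mean of the WT lines for CCL2 and for named members of 6 gene lists, with A10, A30 and B21 in different colours; filled points passed a limma adjusted p of 0.05. CCL2 is filled in A30 alone (1.57), the NF-kB genes lie on both sides of 0, and the A30 and B21 points of FOSL2 and ATF3 lie to the right of 0.

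Of 7 YAP target genes listed, 5 were measured and tested. ANKRD1, a mechanically responsive gene, rose in A30 by 1.26 ± 0.43 and in B21 by 2.15 ± 0.43 relative to the WT lines, and in N8 by 1.91 ± 0.52 relative to the parental cells (limma adjusted p = 0.0352, 0.00251 and 0.0217). In A10 it was at 7.16 in replicate 1 and at 9.57 and 9.53 in replicates 2 and 3, against line means of 7.02 in N4 and 7.30 in the parental cells. Its A10 minus WT difference was 0.91 ± 0.43 (limma adjusted p = 0.212), and 1.71 ± 0.35 without replicate 1 of A10, where it passed (limma adjusted p = 0.00450). In N8 replicate 1 was likewise low, at 7.93 against 9.83 and 9.85. CCN2 rose in B21 by 1.52 ± 0.41 (limma adjusted p = 0.0164). AXL, a receptor kinase gene, fell in A30 and B21 by 0.28 ± 0.08 and 0.27 ± 0.08 and rose in N8 by 0.47 ± 0.10 relative to the parental cells.

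CIC target genes, which CIC represses, had positive differences from the WT lines in every KO-labelled line, with medians over the tested genes of 0.51 in A30, 0.61 in B21 and 0.26 in A10. Of 13 listed, 11 had a probe set and 10 were tested. Of these, 7 rose in A30, 6 in B21 and 1 in A10, where 29.3%, 16% and 8.4% of all genes were called either way. None was called in N8 or in N4 relative to the parental cells (14.7% and 0.547% of all genes). The N8 arrays were far apart in ETV4, at 5.37, 6.63 and 6.66 in rising order (SD 0.74). ETV4 was at 6.08, 6.46 and 6.47 in A10 and at 5.52, 5.59 and 5.70 in the parental cells. Its N8 minus parental difference was 0.62 ± 0.27 (limma adjusted p = 0.133). Over all 6 lines, 8 of the 10 tested CIC target genes fell in replicate 1 relative to replicates 2 and 3, and none rose. Of all tested genes 10% fell and 8.56% rose in that comparison. ETV5, an ETS factor gene, had line means of 6.04 in A30, 6.06 in B21 and 5.85 in A10, against 5.23 in N8, 4.97 in N4 and 4.96 in the parental cells. Its A10 minus WT difference was 0.79 with all arrays and 0.98 ± 0.20 without replicate 1 of A10 (limma adjusted p = 0.0130 and 0.00516). ETV5 was itself lower in replicate 1 over all 6 lines (−0.445 ± 0.088), which the other lines kept, so the larger value follows in part from the omission. In CCL2 the N8 mean exceeded those of B21 and A10, by 0.81 and 1.73. Whether CIC acts on CCL2 was not tested. DUSP5, a MAP kinase phosphatase gene, had line means of 6.01 in A30, 6.06 in B21 and 5.08 in A10 (5.42 without replicate 1 of A10). Its line means were 5.07 in N8, 4.93 in N4 and 5.1 in the parental cells. In rising order its arrays were at 4.40, 5.29 and 5.54 in A10 and at 4.29, 5.34 and 5.59 in N8, so these lines overlapped.

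Of 18 heparan sulfate genes, whose products make or carry the glycans that bind secreted chemokines, 17 were tested. In B21, 5 rose and 3 fell, where 16% of all genes were called. In A30, 4 rose and 1 fell, a share like the 29.3% called over all genes. In A10, 1 rose and 1 fell, and in N8 2 rose relative to the parental cells, where 8.4% and 14.7% of all genes were called. In N4, 1 rose relative to the parental cells, the only one of the 72 tested list genes called there, as against 0.547% of all genes. SDC1, a syndecan gene, fell in A10 and A30 by 0.37 ± 0.07 and 0.24 ± 0.07 and rose in N8 by 0.39 ± 0.08 (limma adjusted p = 0.00209, 0.0106 and 0.00432). Without replicate 1 of A10 its fall in A10 passed as well (−0.42 ± 0.08, limma adjusted p = 0.00216). GPC4, a glypican gene, rose in A30 and B21 by 0.47 ± 0.09 and 0.51 ± 0.09. Of 7 genes of chemokine mRNA decay, KHSRP and ZC3H12A were tested, with line ranges of 0.28 and 0.14, and 1 of them rose in A30.

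Over all 10 lists, 28 of 72 tested genes were called in A30 (38.9%, against 29.3% of all genes) and 28 in B21 (38.9%, against 16%), with 23 higher in each. The lists were chosen with earlier results of these data known, so these shares are given as a description. In A10 7 were called (9.72%, against 8.4%) and in N8 13 (18.1%, against 14.7%), shares near those of all genes. In the genotype comparison 0 of 72 were called with limma. Between replicate 1 and the others 22 of 72 were called (30.6%, against 18.6% of all genes), with 17 lower. The A10 count rested on single arrays: it was 16 without replicate 1 of A10, 2 without its replicate 2 and 1 without its replicate 3, and 4 without replicate 2 of N8. The N8 count was 7 without replicate 2 or replicate 3 of the parental cells and 6 without replicate 2 of N8. The A30 count was 18 without replicate 3 of A30.

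Markers of cells that are common sources of CCL2 were mostly dim. Of 9 monocyte and macrophage markers, 5 had a probe set and CD68 alone was tested, and the mean level of the 5 was 5.17 to 5.34 over the KO-labelled lines and 5.15 to 5.29 over the WT lines. CD68, a lysosomal protein gene that is also expressed outside macrophages, rose in N8 by 0.77 relative to the parental cells and in B21 by 0.30 relative to the WT lines, and was called in neither A30 nor A10. It was at 7.77, 7.47 and 7.54 in N8, against 6.79, 6.70 and 6.98 in the parental cells. Of 7 fibroblast markers, LUM and DCN had a probe set and LUM was tested, at 4.90 in A30, where it fell, and at 5.95 in B21, where it rose. Of 7 endothelial markers, 5 had a probe set and ERG alone was tested, with a line range of 0.20. The part of other cell types in the CCL2 values was not tested.

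Genes with a pattern like that of CCL2 were ranked by Pearson r over the 18 arrays, among the 236 other tested genes whose line means spanned at least 1. Arrays of a line share its clone, so r is given as a description. The 8 highest were ZNF492 (r = 0.851), ZNF502 (0.813), MIR221 (0.798), ZNF544 (0.793), BMP2 (0.781), VAT1L (0.748), PDP1 (0.7395) and NAP1L3 (0.737). ZNF492, ZNF502 and ZNF544 are zinc finger genes. MIR221 is a microRNA gene, BMP2 encodes a bone morphogenetic protein and PDP1 a pyruvate dehydrogenase phosphatase.

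None of these had the order of lines seen in CCL2 exactly. ZNF492 was at 8.0 in A30, 8.06 in B21 and 7.42 in A10, against 7.76 in N8, 6.54 in N4 and 7.0 in the parental cells. BMP2 was at 8.08 in A30, 8.25 in B21 and 7.43 in A10, against 7.67 in N8, 6.38 in N4 and 6.92 in the parental cells. In both, B21 was the highest line, whereas CCL2 was higher in A30 and N8. NAP1L3, a nucleosome assembly family gene, was highest in N8 (7.02) and at 6.32 in A30. With the line means removed, the 8 genes correlated with CCL2 at r = 0.30 to 0.80 over the 18 arrays, lowest in NAP1L3 and highest in ZNF492. The ranking by r over the same arrays favours such values, so they are no further support.

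The lowest r belonged to PDE8B (−0.884), NDNF (−0.845), PCDH9 (−0.811) and IGFBPL1 (−0.805). PDE8B, a cyclic nucleotide phosphodiesterase gene, was at 5.76 in A30, 6.48 in B21 and 6.70 in A10, against 5.87 in N8, 6.81 in N4 and 6.35 in the parental cells. It was thus lowest in the lines with the most CCL2. PCDH9, a protocadherin gene, was at 8.14 in A30 and 7.45 in N8, against 8.92 in the parental cells. Without replicate 1 of A10, 7 of the 8 highest and 4 of the 4 lowest genes were the same. Over the 12 arrays of replicates 2 and 3, 7 of the 8 highest genes were the same, and with Spearman's rho over 18 arrays 5 were.

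**Figure D5:**
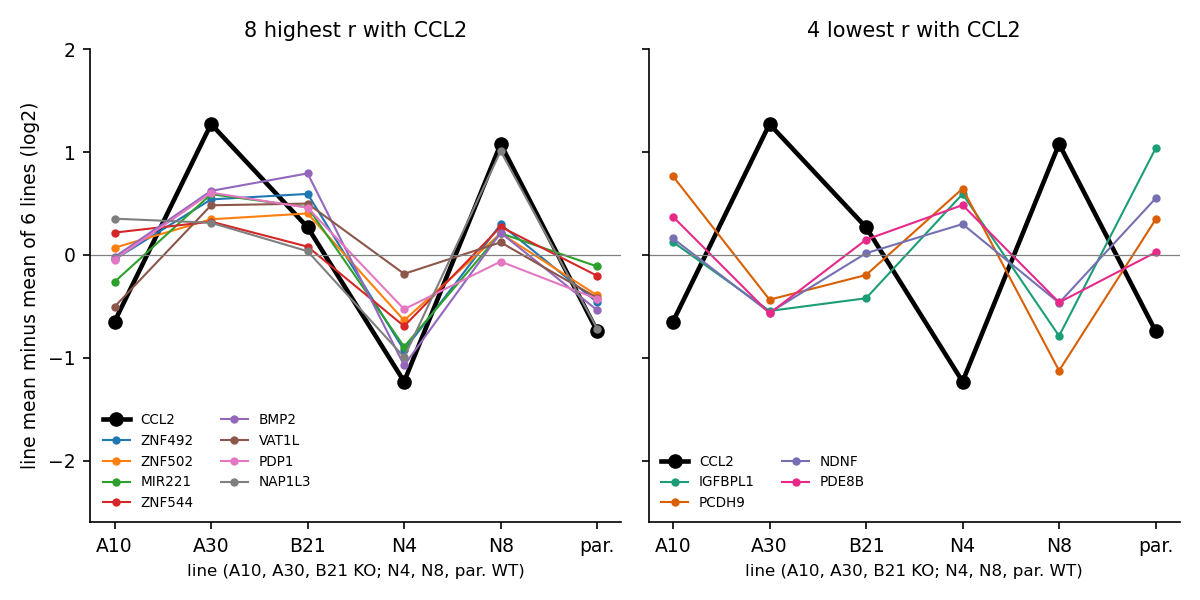
Line means (3 arrays each) with the mean of the 6 lines subtracted (log2), for CCL2 in black with the 8 genes of highest r on the left and the 4 of lowest r on the right. CCL2 has its peaks in A30 and N8, ZNF492 and BMP2 in B21, and PDE8B its lowest values in A30 and N8.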

How the data were processed

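Total RNA was extracted with a Qiagen miRNeasy kit and hybridised to 18 Affymetrix arrays, per the labels' protocols. The authors deposited log2 signals, between 0.57 and 14.84. Per the submitters' processing notes the software was Affymetrix Expression Console, for which no version or setting is stated there. The signals entered every fit without further normalisation. Of 53617 probe sets 16098 had 1 gene symbol. The brightest probe set represented the 779 genes with several. Genes over 5.6 on at least 3 arrays were tested (9686). Fits used limma 3.58.1 in R 4.3.3, two-sided, with Benjamini-Hochberg adjustment over all genes tested and a threshold of 0.05: line means for genotype, arrays for lines. Fits were run on simulated data with planted differences. The simulations for the array fits held no spread between clones and no shared replicate pattern beyond a planted one. They therefore do not cover these features of the data. The number of arrays limits precision. The labels call the replicates biological without saying how they were grown, so array p-values measure only the spread between these samples, which may be technical. CCL2 and the gene lists were chosen with earlier results of these data known. Named genes are the 8 most and 4 least like CCL2, all tested ligands, the 4 members of each list with the widest line range, and 5 measured neighbours on each side; CCR2, ACKR2, CD68, LUM and DCN were named after their values were seen. Gene order and chromosome come from the RefSeq annotation of GRCh38.p14, and no coordinates are given. A search of the CCL2 promoter for motifs was not run. Alternatives covered the filter, normalisation, variance model, probe set rule, unit of replication, replicate block, WT reference and each array or line left out. Python 3.11.15 with pandas 2.3.3, numpy 2.4.6 and matplotlib 3.10.9 was used for tables and figures.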

Additional observations from a re-analysis of the deposited data

Results flagged for a closer look

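CCL2 differed between KO-labelled clones. A30 exceeded A10 by 1.92 ± 0.31 (SE, log2; limma adjusted p = 0.000319), with 6.41, 6.69 and 7.13 in A30 and 4.28, 4.77 and 5.42 in A10. All 3 A30 arrays exceeded all 3 A10 arrays. The other pairs of KO-labelled lines did not pass. Replicate 1 of A10, the array that correlated least with its own line, had the lowest of these values, and without it the difference was 1.65 ± 0.33 (limma adjusted p = 0.00196). The WT line means spanned 2.31, a range for which CCL2 was chosen, and the genotype comparison was not called. The cause of the difference between A30 and A10 was not tested.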

How the results depend on the processing

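CCL2 kept its direction and its side of the threshold in A30, between genotypes and among the KO-labelled lines under every alternative run. Leaving out each array in turn gave 1.38 to 1.74 in A30, −0.65 to −0.08 in A10, 0.30 to 0.77 in B21, 0.49 to 0.70 between genotypes, 1.65 to 2.22 for the range among KO-labelled lines and −0.44 to −0.17 for replicate 1. The WT reference changed 2 results. Without N8, A10 minus WT turned to 0.34 and B21 minus WT passed at 1.26. Against the parental cells alone these were 0.093 and 1.01. Both references leave out N8, for whose level CCL2 was chosen, so these changes are no further support. The replicate 1 difference was 0.08 within WT lines, the reverse of its sign over all lines. Counts of list genes called moved more. In A10 the count of 7 became 4 with no filter or the parental reference, 13 with the replicate number as a block and 25 in replicates 2 and 3, and ran from 1 to 16 with single arrays left out. Among KO-labelled lines the count of 20 became 31 with the replicate block and 32 in replicates 2 and 3 (14 to 25 with arrays left out). In N8 the count of 13 became 20 in replicates 2 and 3 (6 to 17). With arrays left out, the A30 and B21 counts of 28 ran from 18 to 31 and 19 to 32 and the N4 count from 0 to 1; the replicate block gave 33 in A30 and 35 in B21. Between genotypes the count of 0 became 1 with arrays as the unit and lines as random blocks, 1 with the replicate block added to that, 1 without N8 and 5 without A10 (0 to 1 with arrays left out). The causes were not tested. The replicate number was not accepted as a pairing, since not all same-number correlations exceeded 0.1: 39 of 45 did, and the lowest was −0.0037. The median r was 0.20 for same-number pairs and −0.15 for different-number pairs, of which 21 of 90 exceeded 0.1. All 15 replicate 1 pairs exceeded 0.1, and 15 of 18 arrays correlated best with their own number. Arrays of the same number were thus more alike, a pattern in the data that the labels do not explain. With the replicate block, CCL2 was 1.57 in A30, −0.35 in A10, 0.57 in B21 and 1.92 among KO-labelled lines, and no CCL2 call changed. Signal near the filter value limits CCL2 in A10, N4 and the parental cells.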
